A study of Mus musculus with 3 samples.

Results

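The YAP pathway genes described here are 8 genes chosen by their symbols, Ctgf, Cyr61, Thbs1, Ankrd1, Amotl2, Lats2, Yap1 and Tead1, out of 23361 genes in mRNA profiles of mouse liver. All 8 were found in each profile with a successful estimate, and no other gene of the tables overlapped their loci. In the Hippo pathway, kinases of the MST and LATS families phosphorylate the co-activator YAP and hold it in the cytoplasm. Unphosphorylated YAP enters the nucleus, binds TEAD transcription factors and switches on genes such as Cyr61 and Ctgf. In the liver the pathway is known for restraining organ size and for responding to strain and injury. Cyr61, Ctgf and thrombospondin-1 are matricellular proteins, secreted factors that sit in the matrix and act on cells through integrins and other receptors.

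The mice were male C57BL/6J animals, 8 to 10 weeks old by their labels, fasted and anesthetized before surgery. Sham animals had the abdomen opened only. In warm ischemia (WI) the vessels to the left and median lobes were clamped for 1.5 h, and in ischemia followed by reperfusion (IR) the clamp was then opened for 2 h. Each group is 1 library, 6 mice were operated per group, and the number of mice behind a library is not stated. The differences below therefore have no replicate check and no test was made. The only error is the 95% confidence bounds deposited with each level, given in brackets, which do not hold the variation between mice. Sham livers were taken at the time of the WI livers, so reperfusion and the longer time after surgery cannot be told apart.

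The libraries also stood apart in transcripts that differ by sex, against their labels. The X-linked Xist had levels of 18.9, 20.1 and 1.29 FPKM in Sham, WI and IR liver. The Y-linked Eif2s3y had 0, 0 and 13.2 FPKM and Ddx3y 0, 0.00849 and 8.58. Sham and WI liver thus lacked Y-linked transcripts that IR liver had, and in both comparisons of IR liver this difference and the condition cannot be told apart. The FPKM of all genes summed to 475754, 487912 and 712423. Rescaling to a common sum moved the median log2 difference of all genes from 0.03 to -0.41 in IR with WI and from 0.05 to -0.42 in IR with Sham. Genes at least 2-fold higher and lower in IR with WI then numbered 322 and 833, against 624 and 154 as deposited, and in IR with Sham 269 and 1110, against 577 and 232. A second rescaling used the median ratio over the 9590 genes that reached 1 FPKM in every liver. It put both medians at -0.01, with 583 genes higher and 177 lower in IR with WI and 513 and 289 in IR with Sham. Which scaling is nearer to the truth was not tested.

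Promoter windows were found for Cyr61, Ankrd1, Amotl2, Lats2 and Yap1 in RefSeq on GRCm38.p6, the build of the deposited tables. They run from 250 bases before the transcription start to 50 bases from it. Both strands were searched for GGAATG, the core of the motif that TEAD factors bind, which the opposite strand shows as CATTCC. All 5 genes had at least 1 match, and 14.7% of the 32851 windows of the table had one. The windows of Cyr61 (minus strand, chr3:145649936-145650235), Ankrd1 (minus strand, chr19:36119795-36120094) and Amotl2 (plus strand, chr9:102717554-102717853) are shown whole. The deposited levels of these targets were highest in IR, WI and Sham liver, in that order, and only Cyr61 had bounds apart between any livers. Capitals mark the match.
Cyr61: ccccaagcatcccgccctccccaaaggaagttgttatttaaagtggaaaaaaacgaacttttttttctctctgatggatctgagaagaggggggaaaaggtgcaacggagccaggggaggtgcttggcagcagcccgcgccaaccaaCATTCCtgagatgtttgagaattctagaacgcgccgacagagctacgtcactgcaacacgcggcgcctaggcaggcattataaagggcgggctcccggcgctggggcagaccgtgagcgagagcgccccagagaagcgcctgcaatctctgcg
Ankrd1: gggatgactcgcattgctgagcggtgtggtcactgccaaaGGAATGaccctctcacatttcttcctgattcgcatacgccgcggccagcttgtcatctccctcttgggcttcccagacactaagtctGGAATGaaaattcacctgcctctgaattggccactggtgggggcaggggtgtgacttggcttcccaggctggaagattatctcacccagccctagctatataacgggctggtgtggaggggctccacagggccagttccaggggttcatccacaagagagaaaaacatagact
Amotl2: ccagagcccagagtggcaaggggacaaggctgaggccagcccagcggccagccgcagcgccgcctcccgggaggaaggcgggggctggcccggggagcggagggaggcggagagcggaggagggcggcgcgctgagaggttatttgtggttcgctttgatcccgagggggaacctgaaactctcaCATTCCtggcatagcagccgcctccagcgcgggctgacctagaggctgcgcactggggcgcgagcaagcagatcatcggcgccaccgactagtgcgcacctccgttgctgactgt

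For Lats2 (minus strand, window chr14:57746074-57746373) and Yap1 (minus strand, window chr9:8004547-8004846), a kinase and the co-activator itself, 30 bases around the match are shown. Lats2 has a second window, which held no match.
Lats2: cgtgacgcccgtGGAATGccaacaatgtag
Yap1: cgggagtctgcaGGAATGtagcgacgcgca

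With the first transcribed base counted as 0, the match of Cyr61 ran from -103 to -98 and that of Yap1 from -141 to -136. Ankrd1 had a match from -210 to -205 and another from -123 to -118, and Amotl2 had one from -65 to -60. The match of Lats2, from 4 to 9, lay inside the transcript. None of the 6 windows held the AP-1 motif TGANTCA or a CArG box, the sequence that SRF binds, which were in 7.81% and 1.63% of all windows. A match describes the letters only, and binding was not measured.

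**Figure D1:**
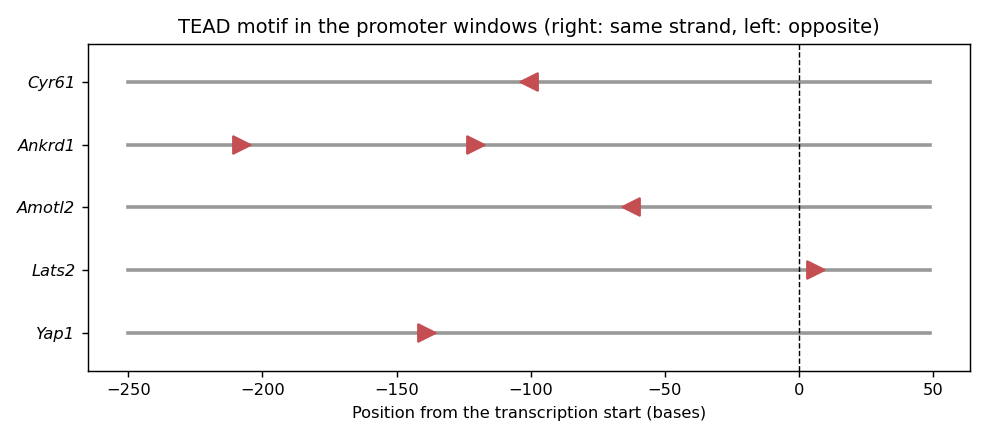
Position of GGAATG (TEAD motif) in the promoter windows of 5 genes, in bases from the transcription start (dashed line at 0). Arrows to the right mark matches on the strand of the gene and arrows to the left the opposite strand. Ankrd1 holds 2 matches, and the match of Lats2 lies after the start.

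Genes were compared where they reached 1 FPKM in any liver, which 10792 genes did. Of these, 8644 had a promoter window, 1256 with the GGAATG letters and 7388 without. In IR with Sham, 5.97% of the genes with the letters and 5.04% of those without were at least 2-fold higher in IR liver, and 2.31% and 1.99% were at least 2-fold lower. The shares in IR with WI were 6.21% and 5.54% higher and 1.91% and 1.07% lower. In WI with Sham they were 0.637% and 0.677% higher and 0.637% and 1.03% lower. Whether these shares differ was not tested.

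FPKM (fragments per kilobase of transcript and per 1e+06 mapped fragments) accounts for length, so the levels of genes can be set beside each other within a library. In Sham liver the order was Yap1, Ctgf, Amotl2, Cyr61, Lats2, Tead1, Thbs1 and Ankrd1, and of neighbours in that order only Tead1 and Thbs1 had bounds that did not overlap. In WI liver it was Yap1, Cyr61, Amotl2, Ctgf, Lats2, Tead1, Thbs1 and Ankrd1, and all neighbours overlapped. In IR liver it was Yap1, Cyr61, Thbs1, Ctgf, Tead1, Amotl2, Lats2 and Ankrd1, where only Lats2 and Ankrd1 were apart.

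**Figure D2:**
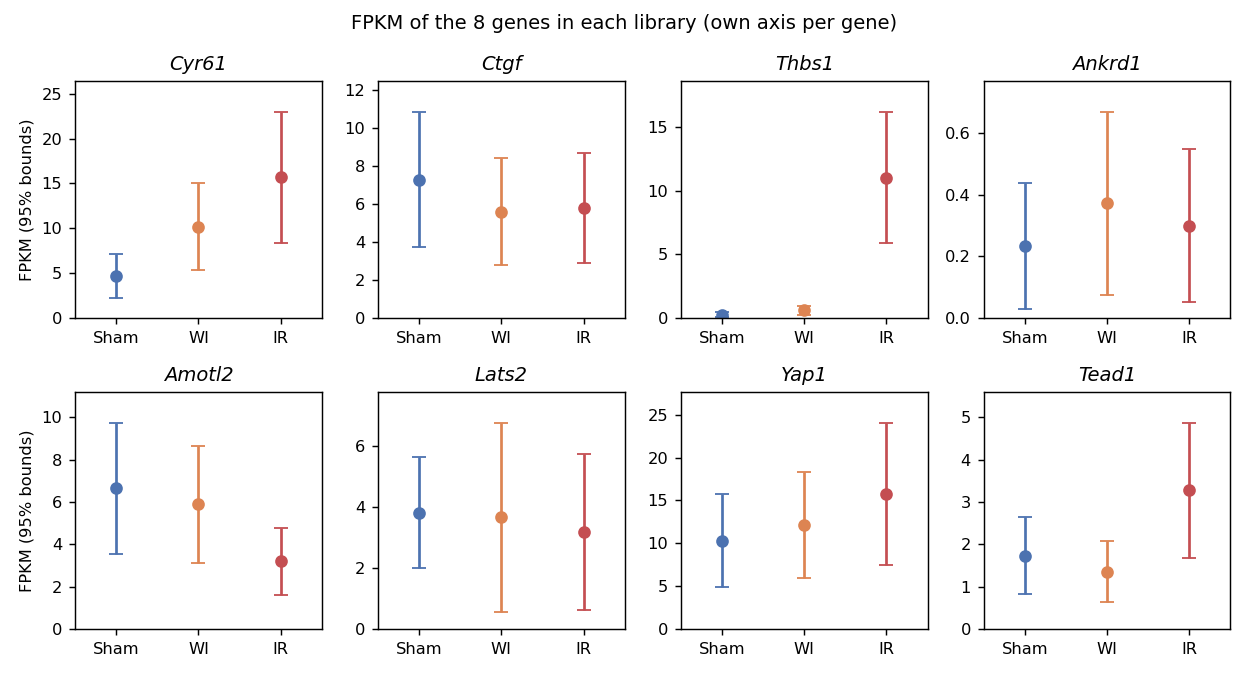
FPKM of the 8 genes (each gene on its own axis from 0) in Sham, WI and IR liver, 1 library each. Points are the deposited levels and bars their 95% bounds. Thbs1 is near 0 in Sham and WI liver and at 11.0 in IR liver, Cyr61 climbs from 4.71 over 10.2 to 15.7, and the bounds of the other 6 genes overlap between all livers.

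Thbs1 had the largest difference of the 8 genes. It encodes thrombospondin-1, a secreted glycoprotein that binds CD36 and CD47 and can activate latent TGF-beta, and lies at chr2:118111922-118127133 in mm10. Its level was 0.269 (0.0827 to 0.455) FPKM in Sham liver, 0.612 (0.239 to 0.985) under WI and 11.0 (5.87 to 16.2) under IR. IR liver was high, the others were low, and the bounds of IR liver overlapped with neither. Its lower bound was 12.9 times the upper bound of Sham liver and 5.96 times that of WI liver.

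Differences are given on the log2(FPKM + 1) scale, where the added 1 understates the change of low genes. Thbs1 differed by 3.24 in IR with Sham, 2.90 in IR with WI and 0.34 in WI with Sham. As ratios of FPKM these were 41.0, 18.0 and 2.27. In IR with Sham it ranked 50 among the 10792 genes by its rise. The tested genes nearest to Thbs1, by the Euclidean distance over the steps from Sham to WI and from WI to IR (3 libraries), were Hsph1 (0.0473), Tubb6 (0.117) and Hsp90aa1 (0.130). The intervals of both steps of Thbs1 reached 0.40 and 0.70 to either side, so the bounds do not resolve such distances. The same holds for the neighbours of the other genes below. All of these neighbours also depend on the added 1. Without it Hsph1 stood at a distance of 1.37 from Thbs1, and among the nearest genes named here for all 8, only Zfp871 for Amotl2 stayed among the first 3. Hsph1, a heat shock protein, had 7.01, 9.04 and 76.1 FPKM in Sham, WI and IR liver.

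Cyr61 was the only gene of the 8 with a difference close to 2-fold in FPKM + 1 already under WI, while in FPKM itself the ratio of Thbs1 was as high. It encodes a CCN family protein that binds integrins, an early target of YAP, at chr3:145646971-145649985. Its level was 4.71 (2.21 to 7.20) FPKM in Sham liver, 10.2 (5.33 to 15.1) under WI and 15.7 (8.38 to 23.0) under IR. The deposited level climbed at each step, yet neighbouring steps overlapped in their bounds. Only Sham and IR liver were apart, with a ratio of 1.16 between the nearest bounds. The log2 differences were 0.97 in WI with Sham, 0.57 in IR with WI and 1.55 in IR with Sham. After rescaling to a common sum they were 0.96, 0.07 and 1.03, and by the median ratio 0.94, 0.53 and 1.47. The size of the climb from WI to IR liver thus depends on which scaling is used. The deposited difference in WI with Sham, a 2.17-fold ratio of FPKM, fell just short of 2-fold in FPKM + 1. Its interval from the bounds was 0.08 to 1.86, and it ranked 91 of 10792 by its rise.

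No tested gene lay within a distance of 0.1 of Cyr61. The nearest were Cbs, an enzyme of sulfur amino acid metabolism (0.159), Isg15, an interferon-induced ubiquitin-like protein (0.171), and Manf, a protein of the endoplasmic reticulum (0.197). Cbs had 67.3, 119.5 and 173 FPKM in Sham, WI and IR liver.

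Ctgf, of the same CCN family as Cyr61, did not climb with it. It encodes connective tissue growth factor, known from fibrosis, at chr10:24595442-24598682. Its level was 7.29 (3.74 to 10.8) FPKM in Sham liver, 5.60 (2.79 to 8.41) under WI and 5.81 (2.91 to 8.71) under IR. Sham liver had the highest level, and all bounds overlapped. The log2 differences were -0.33 in WI with Sham and -0.28 in IR with Sham, and 0.04 in IR with WI. The last became -0.42 after rescaling to a common sum and 0.006 by the median ratio. By the deposited levels 150 tested genes lay within a distance of 0.1, the nearest being Ncapd2, Camk2d and Abcb4. The intervals of both steps of Ctgf reached 0.87 to either side, far more than that distance.

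The other 8 genes of the CCN and thrombospondin families, Nov, Wisp1, Wisp2, Wisp3, Thbs2, Thbs3, Thbs4 and Comp, stayed under 1 FPKM in each liver and were not compared. Thbs2, which encodes a close relative of thrombospondin-1, had 0.587, 0.375 and 0.401 FPKM in Sham, WI and IR liver.

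Ankrd1, a nuclear ankyrin repeat protein often used as a readout of YAP, was the only gene of the 8 that stayed under 1 FPKM, and it was left out of the counts. It lies at chr19:36111965-36119844, and its level was 0.233 (0.0308 to 0.436) FPKM in Sham liver, 0.372 (0.0761 to 0.667) under WI and 0.299 (0.0509 to 0.546) under IR. All bounds overlapped, and WI liver had the highest level. A doubling of FPKM falls short of 2-fold in FPKM + 1 at any level, and by more at low levels such as these. A change of that size in Ankrd1 was therefore not detectable by the rule. Striated muscle is a tissue where Ankrd1 is abundant, and 6 of its 8 markers were listed at 0 in all livers.

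Amotl2 went the opposite way to Cyr61. It encodes an angiomotin-like scaffold that binds YAP and keeps it out of the nucleus, and is itself a YAP target, at chr9:102717804-102733417. Its level was 6.65 (3.55 to 9.75) FPKM in Sham liver, 5.89 (3.13 to 8.64) under WI and 3.20 (1.62 to 4.79) under IR. IR liver was the low one, and its bounds overlapped with both others. The log2 difference was -0.86 in IR with Sham, with an interval of -1.66 to -0.07, -0.71 in IR with WI and -0.15 in WI with Sham. In FPKM itself Sham liver was 2.08 times IR liver. The nearest genes were Zfp871, Klrk1 and Txndc16, and 63 lay within a distance of 0.1.

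Lats2, the kinase that phosphorylates YAP and that YAP induces in a feedback loop, had similar levels in the livers, with wide bounds. It lies at chr14:57689662-57746123, and its level was 3.80 (1.99 to 5.62) FPKM in Sham liver, 3.65 (0.548 to 6.75) under WI and 3.17 (0.612 to 5.74) under IR. The log2 differences were -0.05 in WI with Sham, -0.16 in IR with WI and -0.20 in IR with Sham. The interval of the last ran from -1.24 to 0.84, so a level 2-fold lower under IR could not be told from no difference. The nearest of the 434 genes within a distance of 0.1 were Zdhhc7, Agap3 and Tmc6.

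Yap1, which encodes the co-activator, had the highest level of the 8 in each liver, within the bounds of the next gene. It lies at chr9:7932001-8004596, and its level was 10.3 (4.87 to 15.7) FPKM in Sham liver, 12.2 (5.99 to 18.3) under WI and 15.8 (7.46 to 24.1) under IR. The level climbed at each step by less than the bounds. The log2 differences were 0.22 in WI with Sham, 0.57 in IR with Sham and 0.35 in IR with WI. After rescaling to a common sum they were 0.19, 0.03 and -0.16, and by the median ratio 0.18, 0.49 and 0.31. The nearest of 264 genes within a distance of 0.1 were Clpb, Prelid1 and Crb3. YAP is mainly regulated by phosphorylation and location of the protein, which mRNA levels do not show.

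Tead1, which encodes a DNA-binding partner of YAP, had the largest difference from WI to IR after Thbs1 in the levels as deposited. It lies at chr7:112679320-112906805, and its level was 1.73 (0.830 to 2.63) FPKM in Sham liver, 1.35 (0.637 to 2.07) under WI and 3.28 (1.68 to 4.87) under IR. WI liver was lowest and IR liver highest, and all bounds overlapped. The log2 difference was 0.86 in IR with WI, with an interval of 0.17 to 1.56, 0.65 in IR with Sham and -0.21 in WI with Sham. After rescaling to a common sum it was 0.48 in IR with WI and 0.23 in IR with Sham, and by the median ratio 0.83 and 0.59. As a ratio of FPKM, IR liver was 2.42 times WI liver. The nearest genes were Otud1, Fam203a and Efhd2, and 44 lay within a distance of 0.1.

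**Figure D3:**
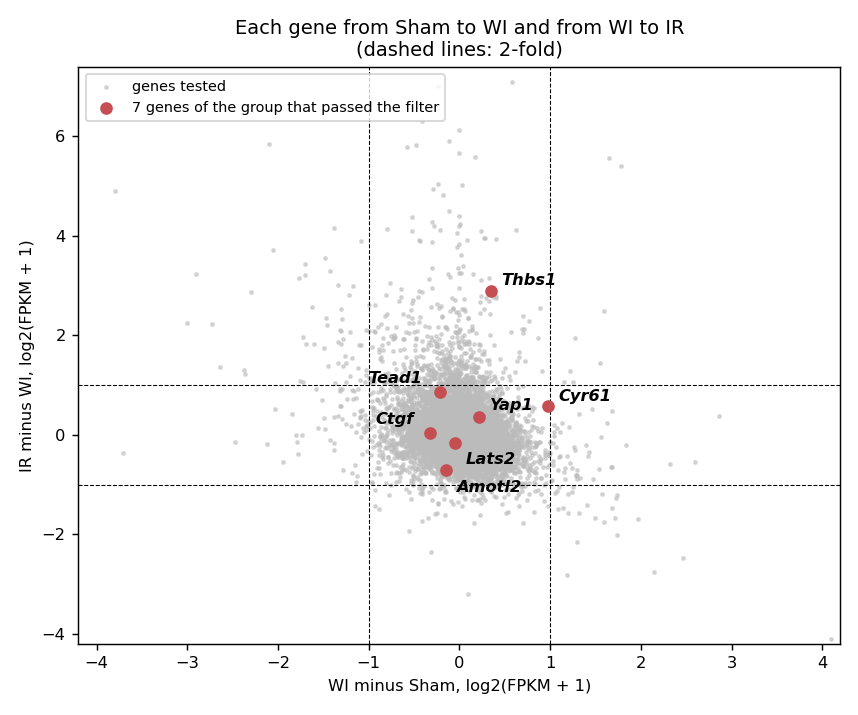
Difference of log2(FPKM + 1) from Sham to WI (horizontal axis) and from WI to IR (vertical axis) for the 10792 tested genes (grey) and the 7 of the 8 genes among them. Dashed lines mark 2-fold. Thbs1 stands at 2.90 on the vertical axis, Cyr61 just inside the 2-fold line at 0.97 on the horizontal axis, and the other 5 lie inside both pairs of lines.

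The 7 tested genes were counted beside all tested genes by whether they passed 2-fold in FPKM + 1. In WI with Sham it was 0 of 7 in either direction, where 0.751% of all tested genes were higher and 1.10% lower. In IR with WI it was 1 of 7, Thbs1, where 5.78% were higher and 1.43% lower. In IR with Sham it was 2 of 7, Thbs1 and Cyr61, where 5.35% were higher and 2.15% lower. Thbs1 reached 1 FPKM only in IR liver, so it passed the filter through the liver where it was high. Its calls in both comparisons of IR liver carry that selection. Itgam, Spon2 and Sox9 of the lists below also reached 1 FPKM only there. In each comparison the members called were also those with bounds apart. Over all tested genes, 0.195% (higher) and 0.482% (lower) had bounds apart in WI with Sham, 3.22% and 0.398% in IR with WI, and 2.70% and 1.12% in IR with Sham.

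The median log2 difference of the 7 genes was -0.05 in WI with Sham, 0.35 in IR with WI and 0.57 in IR with Sham, beside 0.02, 0.03 and 0.05 over all tested genes. In both comparisons of IR liver the median is the value of Yap1. After rescaling to a common sum it was -0.16 in IR with WI and 0.03 in IR with Sham, beside -0.41 and -0.42 over all tested genes. By the median ratio Yap1 differed by 0.31 and 0.49, beside -0.01 over all tested genes in both. The comparisons share libraries. In IR with Sham 4 of the 7 were higher and 3 lower, from -0.86 for Amotl2 to 3.24 for Thbs1, so the genes did not move as a block.

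The other genes of the pathway were taken from lists. Over all tested genes, 5.35% were at least 2-fold higher and 2.15% lower in IR with Sham, and 5.78% and 1.43% in IR with WI. After rescaling to a common sum these shares were 2.46% and 10.1%, and 2.94% and 7.61%. The share of all genes higher or lower by any amount was not counted, so counts by direction have no such share beside them. Of 15 other Hippo kinases and adaptors 13 were tested, and in IR with Sham 11 were lower and 2 higher, none by 2-fold. Their median was -0.36, beside 0.05 over all tested genes. After rescaling to a common sum 3 of them, Mob1a, Mob1b and Taok3, were at least 2-fold lower, and Map4k4 was no longer past 2-fold in IR with WI. In IR with WI, Map4k4, a kinase that can activate LATS, was higher at 5.79 (2.76 to 8.82) FPKM against 1.80 (0.733 to 2.87). Taok3, another such kinase, was lower at 5.27 (2.56 to 7.99) against 11.6 (5.97 to 17.2). Mob1a, the LATS co-activator with the highest level of the list, had 12.4, 9.86 and 6.74 FPKM in Sham, WI and IR liver.

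Of 17 other upstream regulators 14 were tested, with a median of -0.02 in IR with Sham, where 2 were at least 2-fold higher and 0 lower. After rescaling to a common sum Nf2, which encodes the Hippo activator merlin, was also past 2-fold as lower in both comparisons of IR liver, and Cdh1 was past it only in IR with Sham. Rassf1, a scaffold that binds MST kinases, had 5.40 (2.40 to 8.40) FPKM in Sham liver, 3.83 (1.57 to 6.08) under WI and 34.1 (17.7 to 50.4) under IR. Cdh1, the junction protein E-cadherin, had 5.40 (2.87 to 7.93), 8.80 (4.73 to 12.9) and 22.4 (11.7 to 33.1). The bounds of both were apart between Sham and IR liver. Of the partners of Yap1, Wwtr1, which encodes the YAP paralog TAZ, had 5.61, 4.99 and 5.89 FPKM, and 0 of the 3 tested genes of the complex beside Yap1 and Tead1 passed 2-fold in any comparison.

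Of 29 other YAP/TAZ target genes 17 were tested, and in IR with Sham 2 were at least 2-fold higher and 1 lower, with a median of -0.03. Gadd45a, a stress-induced growth arrest gene, had 6.73 (2.88 to 10.6) FPKM in Sham liver, 6.90 (2.99 to 10.8) under WI and 44.7 (23.0 to 66.4) under IR. Tgm2, a transglutaminase that crosslinks matrix proteins, had 27.9 (14.5 to 41.3), 38.4 (19.4 to 57.4) and 112 (48.6 to 176). Both were high in IR liver, with bounds apart from Sham liver. Axl, a receptor tyrosine kinase found on macrophages, was low there, with 13.1 (6.74 to 19.5), 6.34 (3.21 to 9.46) and 3.25 (1.49 to 5.01). Birc5, an inhibitor of apoptosis, passed 2-fold in IR with WI (1.55, 0.852 and 2.79 FPKM in Sham, WI and IR liver), and 0 of the 17 did so in WI with Sham. After rescaling to a common sum Gadd45a and Tgm2 stayed past 2-fold in IR with Sham, where 3 were lower, Axl, Igfbp3 and Nt5e. Only Gadd45a stayed higher in IR with WI, and Axl, Nt5e and Nuak2 were lower.

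Of 13 receptors of CCN proteins and thrombospondin-1, 11 were tested and 0 passed 2-fold in IR with Sham. The thrombospondin-1 receptors Cd36 and Cd47 had 38.0, 33.0 and 26.7 FPKM and 30.6, 28.8 and 26.5 FPKM in Sham, WI and IR liver. In IR with WI, Sdc4, a heparan sulfate proteoglycan and the most abundant of them, was higher at 345 (131 to 558) against 155 (70.9 to 240.1), and Itgam, an integrin chain of myeloid cells, at 1.91 (0.712 to 3.11) against 0.424 (0.140 to 0.708). After rescaling to a common sum neither passed 2-fold, Lrp1 was lower in both comparisons of IR liver and Cd36 in IR with Sham. Of 10 tested receptors and G proteins that act on YAP, 0 passed 2-fold in any comparison, the most abundant being Rhoa at 59.1, 67.0 and 71.7. Of 9 other tested matricellular genes, Spon2 passed 2-fold in IR with WI (0.877, 0.799 and 2.62), and Spp1, osteopontin, had 51.8, 58.7 and 86.7. Under the common sum Spon2 did not pass, and Gnaq of the former list and Postn of the latter were at least 2-fold lower in IR with Sham.

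SRF responds to actin dynamics through MRTF co-activators and shares targets such as Cyr61 and Ctgf with YAP. Of 15 tested genes of its list 13 were higher in IR with Sham, 5 of them at least 2-fold, where 5.35% of all tested genes were. The median was 0.55, beside 0.05 over all tested genes. Vcl, the adhesion protein vinculin, had 4.08 (2.15 to 6.02) FPKM in Sham liver, 4.85 (2.58 to 7.12) under WI and 14.0 (7.44 to 20.6) under IR. The cytoplasmic actins Actg1 and Actb had 90.2, 91.1 and 340.02 and 131, 148 and 301, the tropomyosin gene Tpm4 11.1, 11.3 and 31.2 and the myosin gene Myh9 15.7, 18.9 and 36.1. Mkl1, which encodes an MRTF co-activator, passed 2-fold in IR with WI (1.02). After rescaling to a common sum 2 of the list passed 2-fold in IR with Sham in place of 5, and 1 in IR with WI in place of 5. By the median ratio 5 passed in IR with Sham and 3 in IR with WI.

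Of 11 TGF-beta ligands, receptors and targets 7 were tested, and in IR with Sham 1 was at least 2-fold higher and 1 lower. Tgif1, a transcriptional repressor and the most abundant of them, was the higher one with 7.58, 7.46 and 20.9 FPKM in Sham, WI and IR liver and overlapping bounds. Skil, a repressor of SMAD proteins, was the lower one with 6.05, 2.07 and 2.46 and was the only gene of these pathway lists past 2-fold in WI with Sham (-1.20). Tgfb1 itself had 4.96, 4.09 and 4.59. After rescaling to a common sum Tgif1 did not pass 2-fold, and 3 of the list, Tgfbr1, Smad6 and Skil, were lower in IR with Sham, and Smad6 and Smad7 in IR with WI.

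**Figure D4:**
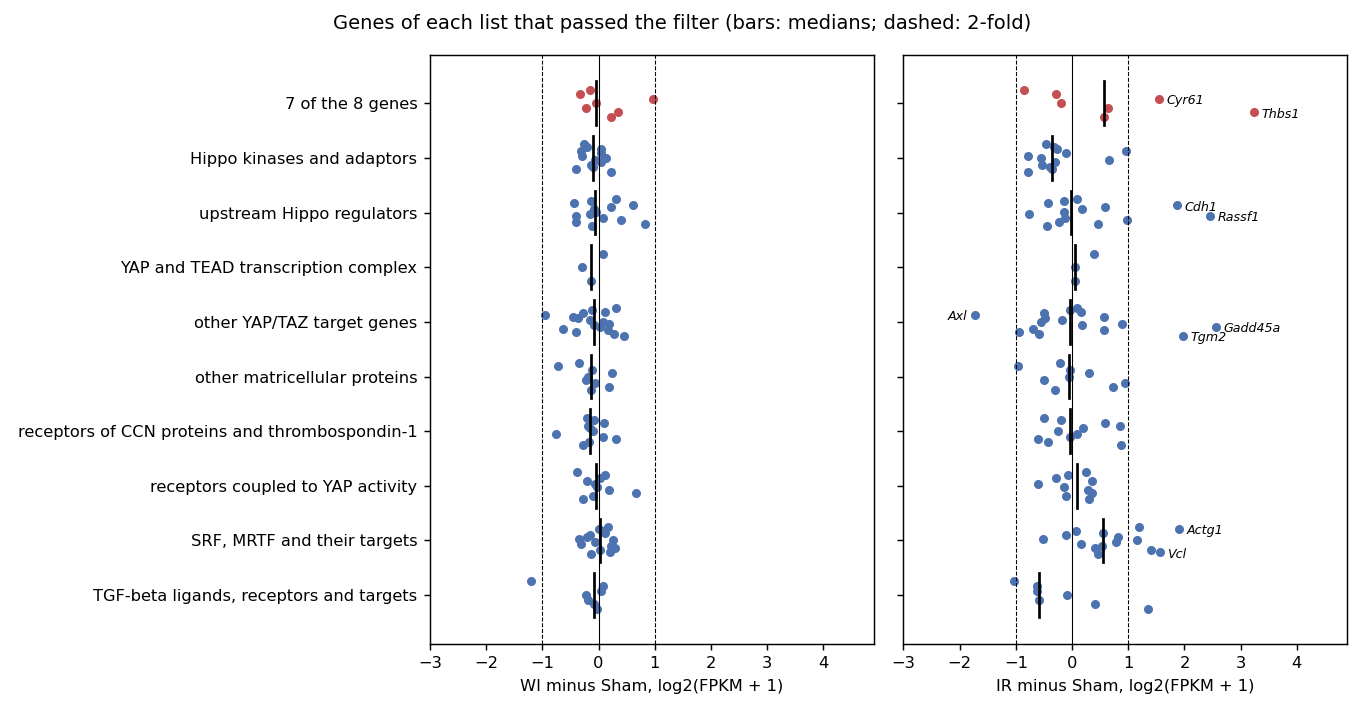
Difference of log2(FPKM + 1) of each tested gene by list, in WI with Sham (left) and IR with Sham (right). Black bars are medians and dashed lines 2-fold. In the left panel Skil (-1.20) is the only gene past a dashed line, and in the right panel the SRF list has a median of 0.55, next to 0.57 for the 7 genes.

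In bulk liver, fewer cells of a type and less RNA per cell cannot be told apart, and markers of several cell types moved with IR. Of 5 neutrophil markers 3 were tested, all 3 at least 2-fold higher in IR with Sham, and the summed FPKM of the list was 23.8, 18.0 and 419.99 in Sham, WI and IR liver, with S100a8 at 13.6, 9.17 and 212 and Mpo listed at 0 in IR liver. Of 7 Kupffer cell and monocyte markers 4 were at least 2-fold lower, and the sum was 265, 147 and 85.4 with Clec4f at 115, 65.3 and 32.7, beside the lower level of Axl. The other 3 did not follow. Ly6c2 had 4.24, 2.46 and 7.49 FPKM and was at least 2-fold higher in IR with WI. Ccr2 had 0.879, 1.03 and 0.932 and Cd68 18.5, 12.3 and 18.5. The 6 platelet markers summed to 2.95, 2.57 and 5.57, with Pf4 the largest part at 1.05, 1.24 and 2.92. Only 2 of them were tested, and 0 passed 2-fold or had bounds apart in any comparison. Platelets are a store of thrombospondin-1, and whether they add to the level of Thbs1 was not tested. The 6 cholangiocyte markers summed to 54.3, 62.0 and 93.8, nearly all of it Spp1, and to 2.52, 3.33 and 7.08 without it. Of 4 tested 1, Sox9, was at least 2-fold higher (0.275, 0.351 and 1.91).

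Endothelium and stellate cells can also express Ctgf and Thbs1. Their marker sums were not higher under IR than in Sham liver, but each sum rests largely on 1 gene. The 8 endothelial markers summed to 127, 91.1 and 113 with 1 at least 2-fold higher and 1 lower in IR with Sham. Clec4g was the largest part of that sum, at 70.7, 55.9 and 41.4. By direction 3 of the 8 were higher and 5 lower. Among the higher ones Lyve1 had 11.2, 2.73 and 33.4 and Cdh5 12.5, 8.15 and 16.9. The 8 stellate cell and fibroblast markers summed to 157, 114 and 117 with 0 at least 2-fold higher and 1 lower, Dcn being the largest part at 130, 91.2 and 95.5. In direction they split evenly in IR with Sham, 4 higher and 4 lower. Col1a1 was among the higher ones, at 1.05, 1.05 and 2.69. The 5 smooth muscle markers summed to 6.86, 5.93 and 8.18 and the 5 mesothelial markers to 0.820, 1.63 and 2.01. Without Krt19, which cholangiocytes also express, the mesothelial sum was 0.338, 0.406 and 0.278. Of the hepatocyte markers, Alb was listed at 0 with a status of too much data, and Ttr had 4241, 4591 and 5765 FPKM, so defining liver transcripts were present. The part of these cell types in the levels of the 8 genes was not tested.

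**Figure D5:**
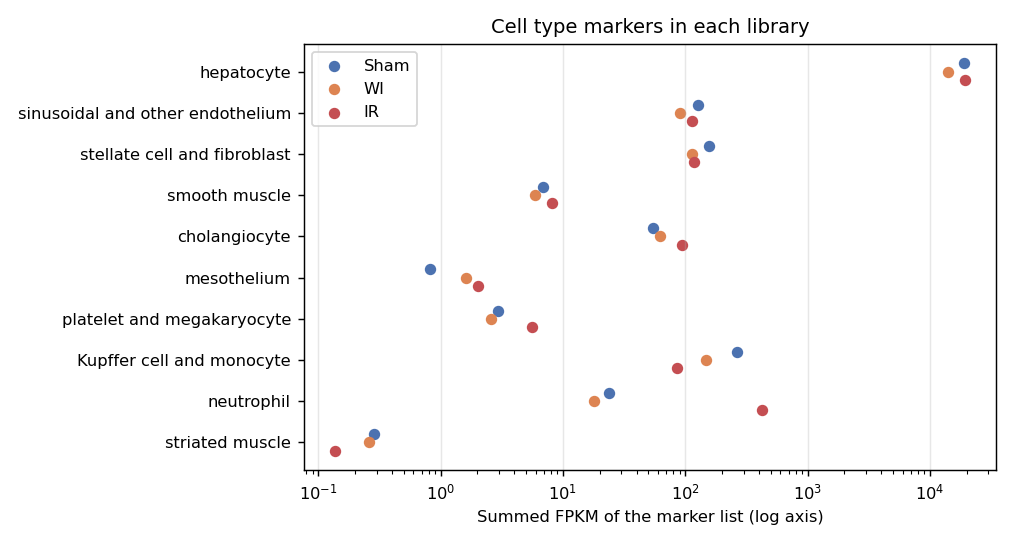
Summed FPKM of each marker list (log axis) in Sham, WI and IR liver, 1 library each. The neutrophil list stands at 23.8, 18.0 and 419.99, and the Kupffer cell and monocyte list at 265, 147 and 85.4.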

How the data were processed

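Total mRNA of 1 library each of Sham, WI and IR mouse liver was analysed. The authors used TopHat2 2.0.9 and Cufflinks 2.0.2 with mm10, per the submitters' notes, and deposited FPKM per gene with 95% bounds. Read counts were not given, so the depth on a gene is unknown. Levels were listed at 0 with a status of too much data for 1, 1 and 7 genes.

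Differences of log2(FPKM + 1) were computed between pairs of livers for the 10792 genes that reached 1 FPKM in any of them. A gene was called at a 2-fold difference of FPKM + 1. With 1 library per group no test was made. Intervals of a difference combine both libraries' bounds. Gene starts were raised by 1 to count from 1. Named beside the 8 are list genes called in any comparison, the most abundant gene of each list and the 3 tested genes nearest to each of the 8. Thbs2, Wwtr1, Cd36, Cd47, Tgfb1, Ttr, Mpo, Alb, Sox9, S100a8, Clec4f, Krt19, Clec4g, Lyve1, Cdh5, Dcn, Col1a1, Ly6c2, Ccr2, Cd68, genes called only after rescaling and the transcripts that differ by sex were named after their values were seen. A gene of the TGF-beta list is not reported here, and the counts of that list leave it out. The 8 genes and the lists were chosen with earlier results of these data known. The calls were checked on simulated tables with Python 3.11.15, numpy 2.4.6 and pandas 2.3.3.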

Additional observations from a re-analysis of the deposited data

How the results depend on the processing

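With 1 library per group no replicate could be left out, and no paired analysis was possible because the groups do not share at least 2 replicate numbers. In WI with Sham the count of 0 of the 7 tested genes became 1 with a pseudocount of 0.1 or at 1.5-fold (Cyr61), and 2 with no pseudocount (Cyr61 and Thbs1), a setting chosen after seeing the data. In IR with WI the count of 1 became 2 with a pseudocount of 0.1 or none (Thbs1 and Tead1), 2 with FPKM rescaled to a common sum (Thbs1 higher, Amotl2 lower) and 3 at 1.5-fold. In IR with Sham the count of 2 became 4 at 1.5-fold and 1 at 4-fold (Thbs1), and 3 with a pseudocount of 0.1, none, or a common sum, which adds Amotl2 as lower. Rescaling by the median ratio left the counts at 0, 1 and 2. Of the log2 differences of the tested genes of the 8 under other pseudocounts and scalings, which unlike the filters can move them, 78 stayed within the interval from the bounds and 6, all of Thbs1 under other pseudocounts, did not. Over all genes the calls higher and lower in WI with Sham, 81 and 119, became 135 and 247 with a pseudocount of 0.1, 157 and 278 with none, 339 and 461 at 1.5-fold and 7 and 17 at 4-fold. In IR with WI they became 854 and 385, 875 and 434, 1333 and 799, and 175 and 19 in the same order, and in IR with Sham 803 and 626, 819 and 661, 1548 and 1024, and 141 and 25. The low levels of Thbs1 and Ankrd1 and the absence of counts and replicates limit what these data resolve.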

Other observations

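Among YAP/TAZ targets that stayed under 1 FPKM the epidermal growth factor receptor ligands Ereg and Areg had their highest levels under IR. Not all such targets did. Myof had 0.968, 0.582 and 0.328 FPKM in Sham, WI and IR liver with overlapping bounds, and Arhgef17 and Ptpn14 were likewise highest in Sham liver. Ereg had 0.0524 (0 to 0.108) FPKM in Sham liver, 0.0872 (0.00488 to 0.170) under WI and 0.658 (0.226 to 1.09) under IR, and IR liver was apart from both others in its bounds. Areg had 0.0963 (0 to 0.213), 0.0286 (0 to 0.0902) and 0.683 (0.152 to 1.21), with bounds apart between WI and IR liver and overlapping between Sham and IR liver. All of these genes were named after their levels were seen, and the directions of the targets under 1 FPKM were not counted.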
